A study of Mus musculus and Homo sapiens with 10 samples.

Results

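The immunoglobulin kappa V segments are the mouse genes whose symbols start with Igkv. Each encodes a variable exon of the antibody kappa light chain or is a decayed copy of one. They were chosen by symbol and by position on chromosome 6, with no measured value used, though earlier results of these data were known. The gene annotation used (RefSeq, GRCm38.p6, which is mm10) lists 162 of them among 49210 annotated genes on chromosomes 1 to 19 and X. It classes 102 as V segments and 60 as V segment pseudogenes, in 20 numbered families.

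In a developing B cell, recombination joins a single V segment to a J segment, which lies ahead of the constant exon Igkc. The joined gene encodes the light chain that pairs with a heavy chain. Cells outside the lymphoid lineage keep the segments apart and do not make the protein. In such cells the heavy chain and kappa loci have been found near the nuclear lamina, a protein mesh under the nuclear envelope that binds long stretches of mostly silent chromatin. Those stretches are called lamina-associated domains (LADs).

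The LADs came from N2A cells, a mouse neuroblastoma line, mapped by DamID. In DamID a protein fused to the bacterial methyltransferase Dam marks GATC sites near its binding places, here under doxycycline induction. The study set DamID read on Nanopore instruments beside the established Illumina version. By Nanopore there was 1 sample of LaminB1-Dam, 1 labelled 10% LaminB1-Dam and 1 of Dam alone. By Illumina there were 2 samples of LaminB1-Dam and 1 of Dam alone, and 1 further N2A sample was wild type. LaminB1 is a building block of the lamina, and Dam alone carries no lamina protein. The other 3 samples were HEK293T cells and were not used here. The values were a consensus LAD list per method, with 1174 Nanopore and 1149 Illumina LADs on these chromosomes. The lists hold positions only, with no value per sample, so depth is unknown, no spread between replicates could be computed and no comparison below carries a test. Both lists come from a single cell line.

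All 162 Igkv members lay in LADs of both lists. Placed by midpoint, 162 of 162 fell in the Nanopore list's LADs and 162 of 162 in those of the Illumina list, with 0 in a LAD of a single method and 0 in neither. Among all annotated genes, Igkv members included, the share so placed was 38.9% by Nanopore and 34.7% by Illumina. For protein-coding genes the shares were 28.9% by Nanopore and 25.4% by Illumina. On chromosome 6 they were 48.1% and 45.8% of all annotated genes in Nanopore and Illumina LADs. The members are neighbours inside a single interval, so the count of 162 describes 1 domain and not 162 independent placements. Both counts of 0 follow from that interval, which was the same in both lists. The shares of all annotated genes in a single list only or in neither are not given here.

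That domain, called the kappa LAD here, ran from 67320001 to 70760000 on chromosome 6 (mm10) in the Nanopore list and over the same bases in the Illumina list. It was 3.44 Mb wide, which is 172 steps of the 20 kb grid on which LAD borders lie. The members spanned 3.15 Mb of it, from 67555636 to 70704177, or 91.5% of its width. Both lists covered 100% of that span without a gap. Members fell in 119 of the 159 grid bins from the first to the last of them. The other 40 bins held no member and were in the LAD of both lists too.

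**Figure D1:**
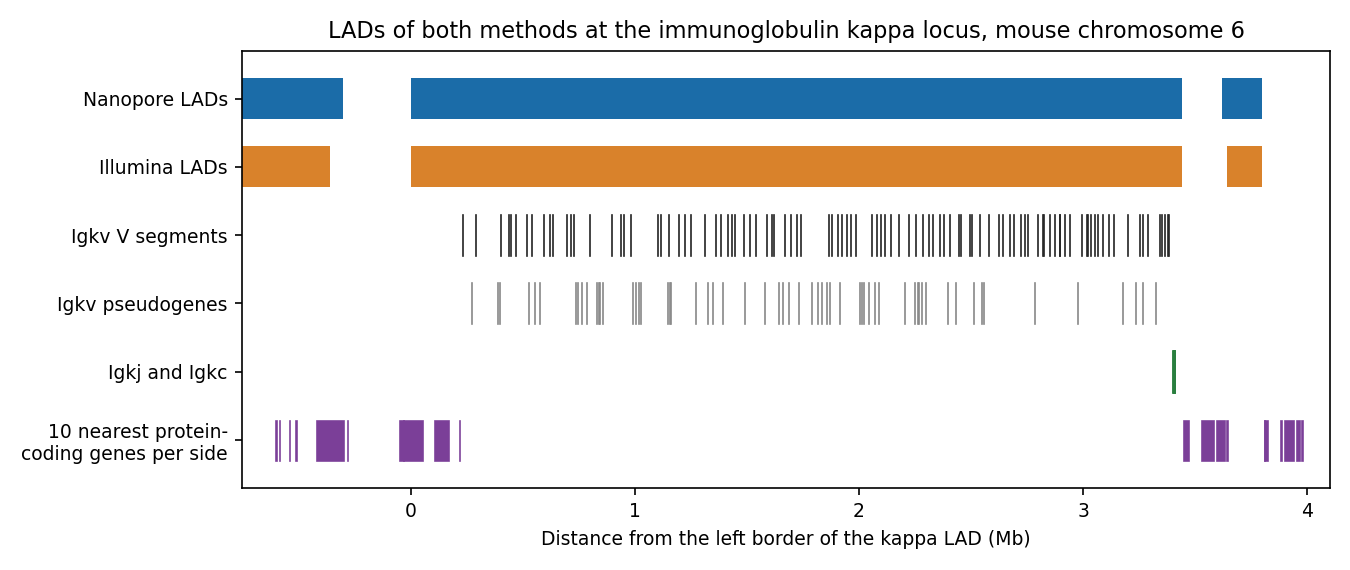
Map of the locus, with distance from the left border of the kappa LAD in Mb on the horizontal axis. Rows show the LADs of each method as bars, Igkv V segments and pseudogenes as ticks at their midpoints, the Igkj segments with Igkc, and the 10 nearest protein-coding genes on each side; a single bar of 3.44 Mb holds all 162 members in both lists.

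Shared borders of this kind were a minority. Of the Nanopore LADs 137 of 1174 (11.7%) had the same start and end, to the base, as an Illumina LAD, which is 11.9% of the Illumina list. Among LADs of 2 Mb or more it was 16 of 211 by Nanopore (7.58%) and 16 of 188 by Illumina (8.51%), the kappa LAD among them. In width the kappa LAD ranked 98 of 1174 by Nanopore and 85 of 1149 by Illumina. On chromosome 6 it ranked 10 of 51 by Nanopore and 10 of 53 by Illumina.

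The members sat well within the borders. The first was Igkv2-137 (NCBI gene 692187, 67555636 to 67556216), a V segment 235.6 kb from the left border. The last was Igkv3-1 (70703578 to 70704177), a V segment 55.8 kb from the right border. The distance from a member to the nearer border was 55.8 kb at the lowest, 988 kb at the median and 1716 kb at the highest. Only Igkv3-1 was under 60 kb from a border, 5 members were under 100 kb, and 129 were at least 500 kb from both. The 5 were Igkv3-1, Igkv3-2, Igkv3-3, Igkv3-4 and Igkv3-5, all at the right border. Near the centre of the domain lay Igkv4-79 (69042972 to 69043505). The left border was nearer for 69 members and the right border for 93.

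At the right end the J segments and the constant exon were inside the same LAD. Igkj1, Igkj2, Igkj3, Igkj4 and Igkj5 lay from 70722562 to 70723923, and Igkc from 70726435 to 70726754. Igkj1 ended 37.4 kb and Igkc 33.2 kb before the right border in both lists. All parts of the kappa gene, V, J and C, were therefore in LADs of both methods.

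The right border fell between Igkc and Rpia, the gene of ribose 5-phosphate isomerase in the pentose phosphate pathway. The nearer end of Rpia (70765720 to 70792175) lay 5.72 kb past the border, less than a grid step of 20 kb. Rpia had 0% of its length in a LAD of either list. Eif2ak3 (70844484 to 70905241), which encodes the stress kinase PERK, was also wholly outside both. The stretch between LADs was 180 kb in the Nanopore list and 200 kb in the Illumina list, since the next LAD began at 70940001 by Nanopore and at 70960001 by Illumina. That difference of a grid step fell on 2 of the flanking protein-coding genes. Foxi3 (70956606 to 70961066), a forkhead transcription factor gene, had 100% of its length in the Nanopore LAD and 23.9% in the Illumina LAD, with its midpoint in the Nanopore LAD only. Tex37, a testis-expressed gene, had 29.2% of its length in the Nanopore LAD and 0% in the Illumina LAD.

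The left border lay within a gene. Il12rb2 (67285986 to 67376293) encodes a chain of the interleukin 12 receptor, and 62.3% of its length was in the kappa LAD in both lists. Il23r (67422932 to 67491855), which encodes the interleukin 23 receptor, was wholly inside in both. Serbp1 (67266979 to 67289302), the gene of an mRNA-binding protein, overlaps an end of Il12rb2 and lay outside both lists, 30.7 kb from the border. Gadd45a (67035096 to 67037407), a gene of the response to DNA damage, was outside both as well. The stretch between LADs on this side was 0.3 Mb by Nanopore and 0.36 Mb by Illumina. By midpoint it held 9 annotated genes by Nanopore and 11 by Illumina, with 2 protein-coding genes in each. Among the flanking protein-coding genes the difference fell on Gng12, a G protein subunit gene. Gng12 had 98.9% of its length in the Nanopore LAD and 50.9% in the Illumina LAD. Its midpoint was in both, though only 1.12 kb from the Illumina border.

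Both flanks taken as the 10 nearest protein-coding genes differed in count. On the left 8 of 10 midpoints were in LADs by Nanopore and 8 of 10 by Illumina. These were the 3 genes of the kappa LAD and, in the next LAD, Gng12 and the pheromone receptor genes Vmn1r36, Vmn1r37, Vmn1r38 and Vmn1r39. On the right 1 of 10, Foxi3, was in a LAD by Nanopore and 0 of 10 by Illumina. Beyond Foxi3 on that side came Rpl34-ps1, Thnsl2, the liver fatty acid binding gene Fabp1, the muscle gene Smyd1, Krcc1 and Gm1070, all outside both lists.

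**Figure D2:**
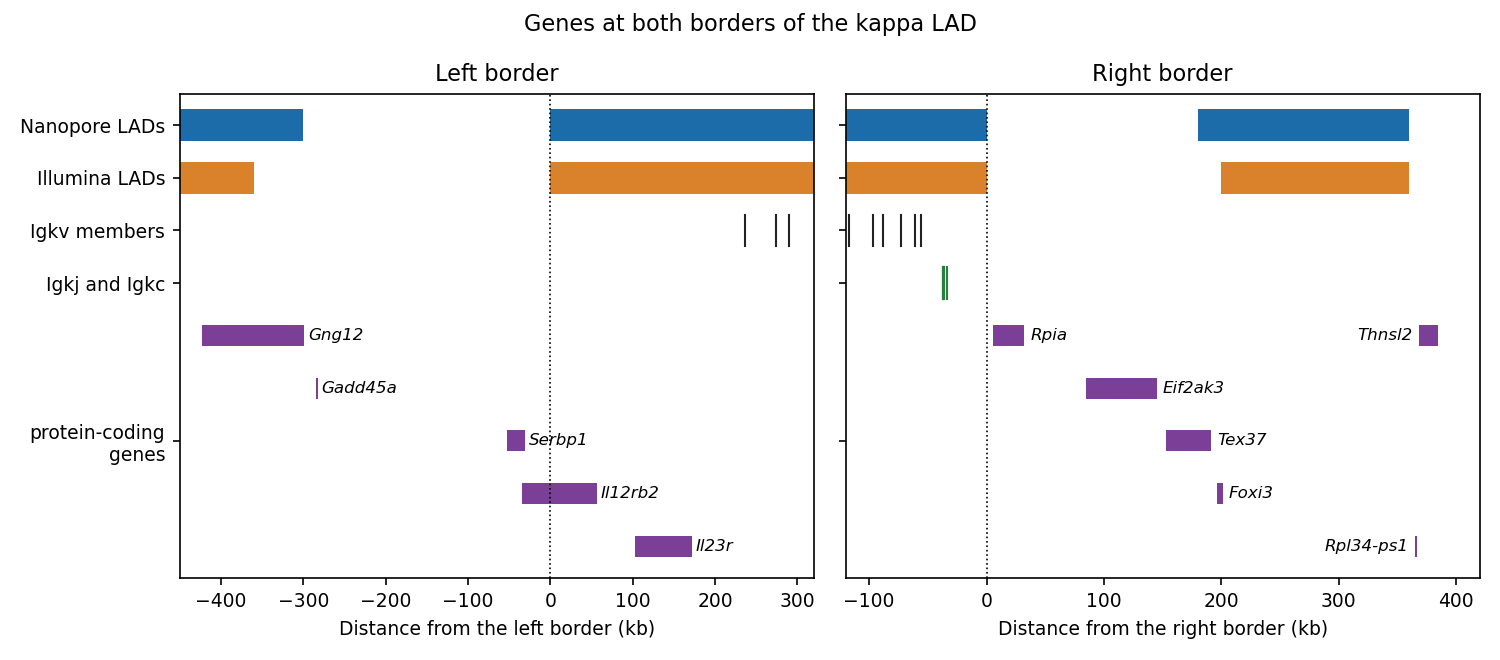
Genes at the left and the right border of the kappa LAD, with distance from that border in kb (dotted line at 0). Bars show Nanopore LADs above Illumina LADs, and ticks show Igkv, Igkj and Igkc. Boxes show those protein-coding genes named in the text that fall within the plotted range. Both methods place the borders inside Il12rb2 and 5.72 kb before Rpia, a distance under the grid step of 20 kb. They differ at Gng12, Tex37 and Foxi3.

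Promoters that stand on either side of each border are shown, and none of their windows reaches a border. The windows are from RefSeq (GRCm38.p6) and are 300-base stretches around a transcript start, 5′ to 3′ on the gene's strand. The start used can differ from the gene's outer end, as it does at Il12rb2. Capitals mark GATC, the site that Dam methylates and DpnI cuts, which reads the same on both strands. At the left border the Il12rb2 window lay 56.3 kb inside the kappa LAD and the Serbp1 window 53.1 kb outside it. At the right border the window of Gm30211, a long non-coding RNA gene just past Igkc, lay 30.9 kb inside, and the Rpia window 32.3 kb outside.
Il12rb2, chr6:67376139-67376438, minus strand: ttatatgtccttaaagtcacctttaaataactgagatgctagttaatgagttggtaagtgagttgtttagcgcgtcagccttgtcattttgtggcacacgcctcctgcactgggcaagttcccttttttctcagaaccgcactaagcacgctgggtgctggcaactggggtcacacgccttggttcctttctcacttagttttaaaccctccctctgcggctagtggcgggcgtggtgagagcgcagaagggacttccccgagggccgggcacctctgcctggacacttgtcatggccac
Serbp1, chr6:67266729-67267028, plus strand: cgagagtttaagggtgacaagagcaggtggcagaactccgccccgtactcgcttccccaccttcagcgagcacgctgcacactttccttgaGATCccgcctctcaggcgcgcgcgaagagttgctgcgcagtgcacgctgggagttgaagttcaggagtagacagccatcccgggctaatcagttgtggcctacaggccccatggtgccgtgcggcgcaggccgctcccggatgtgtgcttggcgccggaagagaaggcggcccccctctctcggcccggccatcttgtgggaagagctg
Gm30211, chr6:70728963-70729262, plus strand: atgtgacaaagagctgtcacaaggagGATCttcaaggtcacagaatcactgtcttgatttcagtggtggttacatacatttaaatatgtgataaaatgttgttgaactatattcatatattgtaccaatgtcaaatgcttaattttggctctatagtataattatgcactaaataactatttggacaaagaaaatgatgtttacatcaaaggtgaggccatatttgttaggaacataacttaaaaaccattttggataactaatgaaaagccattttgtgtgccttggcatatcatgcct
Rpia, chr6:70792126-70792425, minus strand: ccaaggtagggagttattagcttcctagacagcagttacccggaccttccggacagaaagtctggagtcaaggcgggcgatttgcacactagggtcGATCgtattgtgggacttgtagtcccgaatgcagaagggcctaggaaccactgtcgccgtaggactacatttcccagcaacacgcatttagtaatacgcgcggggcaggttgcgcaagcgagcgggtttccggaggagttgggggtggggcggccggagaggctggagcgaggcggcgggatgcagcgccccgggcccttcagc

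The Il12rb2 window held 0 GATC sites, and the other 3 windows held 1 each. Of 32619 windows of this length on chromosomes 1 to 19 and X, 47.7% held at least 1 GATC. CpG dinucleotides numbered 12 in the Il12rb2 window and 0 in the Gm30211 window, both inside the LAD, against 24 in the Serbp1 window and 24 in the Rpia window, both outside. Among the other windows of the flanking genes, some went the same way and some did not. Inside LADs of both lists, the Vmn1r36, Vmn1r37, Vmn1r38 and Il23r windows held 1, 1, 0 and 2. Outside both, the Krcc1, Eif2ak3, Gadd45a, Gm1070 and Thnsl2 windows held 37, 17, 14, 12 and 11. Against the split, the 2 Gng12 windows, inside LADs of both lists, held 34 and 35. The Tex37, Fabp1 and Smyd1 windows, outside both, held 1, 3 and 3. Over chromosomes 1 to 19 and X the median was 3 CpG in 8436 windows inside LADs of both lists and 12 in 22467 windows in neither. Across the whole kappa LAD 7 windows were found, with a median of 2 CpG, and 3 of them held a GATC. None of the 162 Igkv members was matched to a window. The octamer ATTTGCAT on either strand, a known element of immunoglobulin promoters, could therefore not be counted for them. It was in 1 of the 7 windows in the kappa LAD, that of LOC108169192. The window of Gadd45a, outside both lists, held it too. So did 1.75% of all windows and 2.62% of windows in LADs of both lists, and no difference was tested.

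Some families lay in blocks along the domain and others were scattered. Next to the constant exon, all 13 Igkv3 members filled 0.206 Mb (70497662 to 70704177) with no member of another family among them, at 55.8 to 262 kb from the right border. Before them came Igkv6 and Igkv8, with 9 and 13 members in a stretch of 0.414 Mb that held 1 member of another family, Igkv7-33. Igkv5, with 6 members, lay 796 to 1033 kb from the nearer border. The largest family, Igkv4, had 33 members over 0.946 Mb (68755038 to 69701287), at 1059 kb or more from both borders. Igkv13 members were interleaved with them: the stretch from the first to the last Igkv13 held 49 members, 26 of them Igkv4 and 19 Igkv13. Igkv12, with 6 V segments and 6 pseudogenes, was scattered over 1.37 Mb (68570763 to 69943648), before, among and after the Igkv4 members. The stretch that held the Igkv12 and Igkv5 members together had 79 members, 61 of them of other families.

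The left part of the domain was more mixed. Igkv9, with 6 members, lay 520 to 736 kb from the left border, among members of Igkv1, Igkv14, Igkv17 and Igkv11. The 13 Igkv1 members were the most spread, over 2.42 Mb, and Igkv1-35 (70010949 to 70011673) stood apart from the rest of its family in the right part. The 10 Igkv2 members spanned 1.16 Mb and held Igkv2-137, the member nearest the left border. Of the 20 families 5 had a single member, Igkv7, Igkv16, Igkv18, Igkv19 and Igkv20. Whatever the family, its members in LADs were all of its members, with both methods.

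**Figure D3:**
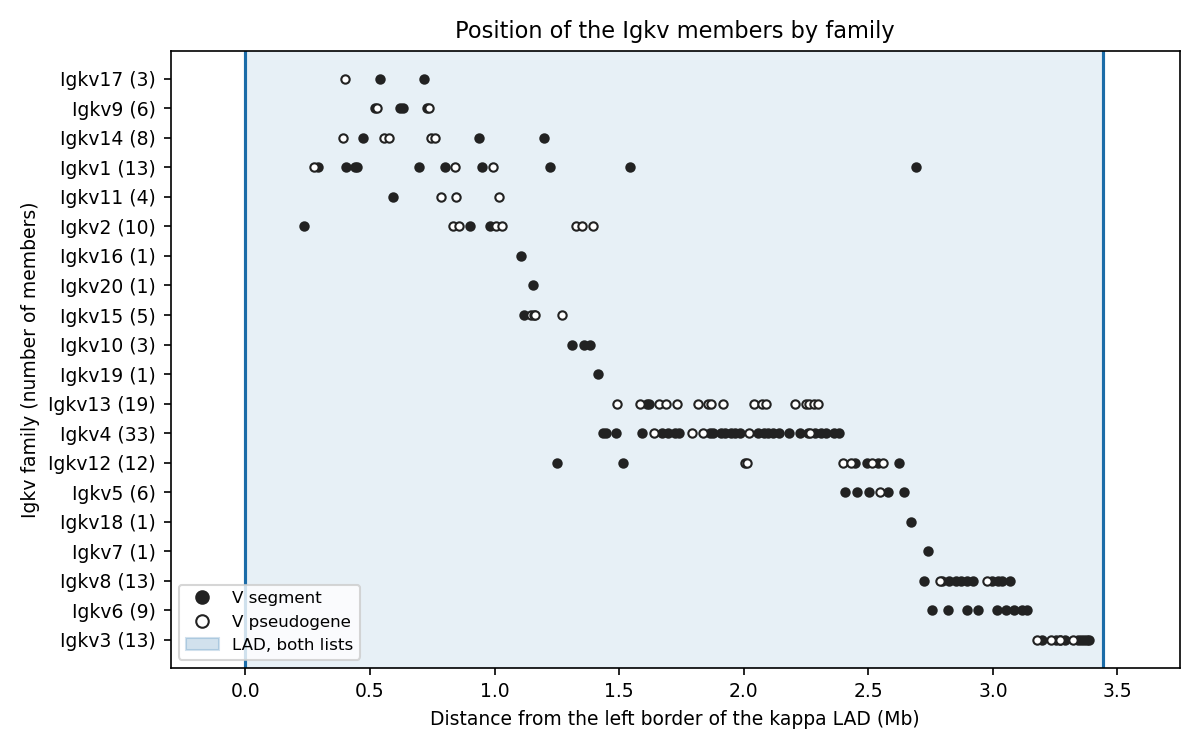
Position of each Igkv member by family, as distance from the left border of the kappa LAD in Mb; families run from left to right by their median position, filled points are V segments and open points pseudogenes. The shaded band is the LAD of both lists: Igkv3 ends 55.8 kb before the right border and Igkv4 with Igkv13 lie in the middle.

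V segments and pseudogenes were alike in LAD status and differed in where they lay. All 60 pseudogenes and all 102 V segments were in LADs of both lists. Pseudogenes were 1144 kb from the nearer border at the median and V segments 900.5 kb, with ranges of 116 to 1708 kb and 55.8 to 1716 kb. In steps of 0.5 Mb from the left border, the step from 0.5 to 1.0 Mb held 12 pseudogenes and 13 V segments. The step from 2.5 to 3.0 Mb held 5 pseudogenes and 20 V segments, and the last, from 3.0 Mb to the right border, held 4 and 17. By family, 17 of 19 Igkv13 and 7 of 10 Igkv2 members were pseudogenes, against 5 of 33 Igkv4 and 0 of 9 Igkv6 members.

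The members are small and far apart. Their median length was 525.5 bases, and together they took up 2.71% of the span. The longest was the pseudogene Igkv3-11, at 1167 bases, and the shortest the pseudogene Igkv13-89-1, at 49 bases. The gap between neighbours was 16.8 kb at the median. It reached 100.7 kb between Igkv1-135 and Igkv14-134-1 and was as small as 93 bases between Igkv3-9 and Igkv3-8. A grid step of 20 kb therefore held 3 members at most, so the LAD lists cannot separate a member from the sequence around it.

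Few protein-coding genes shared the domain. The kappa LAD held 206 annotated genes by midpoint, of which Igkv members were 78.6%. The rest were the 5 J segments, Igkc, 1 entry named Igk for the locus as a whole (67555636 to 70726754) and 37 others, with 23 pseudogenes, 5 long non-coding RNA genes, 4 small nucleolar RNA genes and 3 protein-coding genes among these. It thus had 59.9 annotated genes and 0.872 protein-coding genes per Mb. LADs of 2 Mb or more had medians of 7.96 annotated and 1.90 protein-coding genes per Mb by Nanopore, and 7.24 and 1.46 by Illumina. At least as many annotated genes per Mb were found in 5 of the 211 LADs of that size by Nanopore and in 5 of 188 by Illumina, the kappa LAD included. For protein-coding genes, 51 by Nanopore and 56 by Illumina had as few or fewer per Mb.

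**Figure D4:**
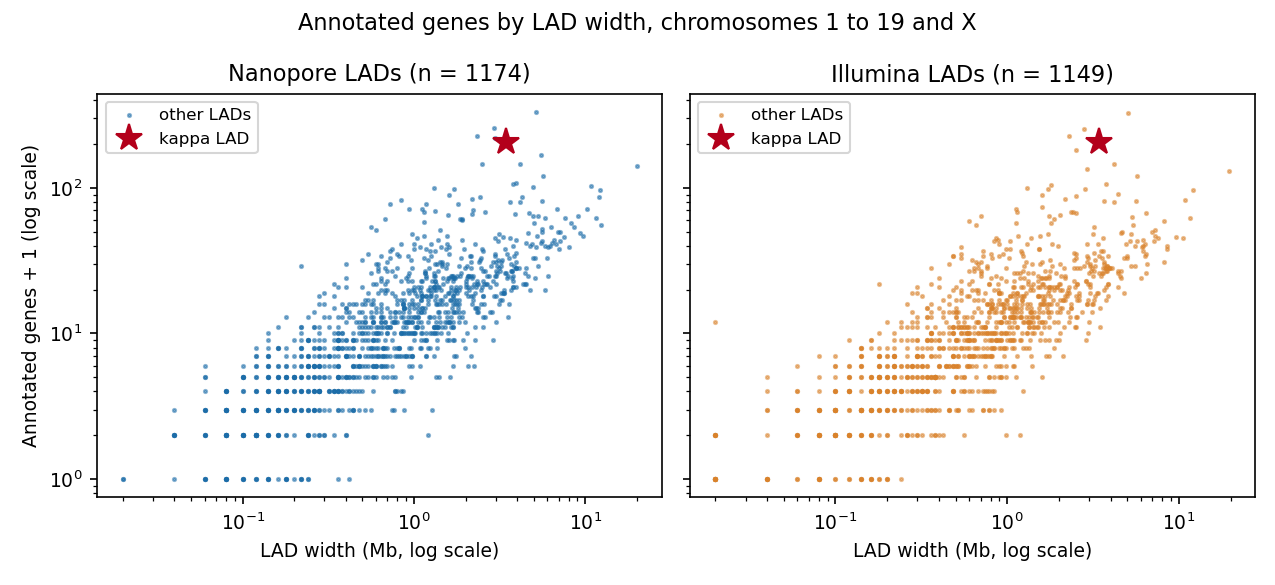
Annotated genes (number plus 1, log scale) against LAD width (Mb, log scale) for every Nanopore LAD (left) and Illumina LAD (right) on chromosomes 1 to 19 and X. The star is the kappa LAD, with 206 genes in 3.44 Mb, near the top of both panels.

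The other antigen receptor loci were set beside kappa by the same count. All 183 Ighv segments of the heavy chain (chromosome 12), all 3 Iglv segments of the lambda light chain (chromosome 16), all 35 Trbv segments (chromosome 6) and all 7 Trgv segments (chromosome 13) were in LADs of both lists. Tr symbols mark T cell receptor genes. The Ighv LAD had other borders in each list, 113300001 to 116240000 by Nanopore and 113240001 to 116020000 by Illumina. The Iglv LAD began at 19000001 in both lists but ended at 19620000 by Nanopore and at 19600000 by Illumina. The LADs that held Trbv (40500001 to 42220000) and Trgv (18000001 to 21140000) had the same borders in both lists, as the kappa LAD did. The T cell receptor alpha locus on chromosome 14 differed: 114 of 130 Trav segments (87.7%) lay in LADs by Nanopore and 95 (73.1%) by Illumina, spread over 3 LADs in each list. Of the 6 Trdv segments 4 were in LADs of each list. Those 4 lay in a LAD that also held Trav segments, and the Trdv and Trav spans overlap. These are counts at 1 locus each, with Trav and Trdv not separate loci. Neighbours within a locus share a domain, and no difference between loci was tested.

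**Figure D5:**
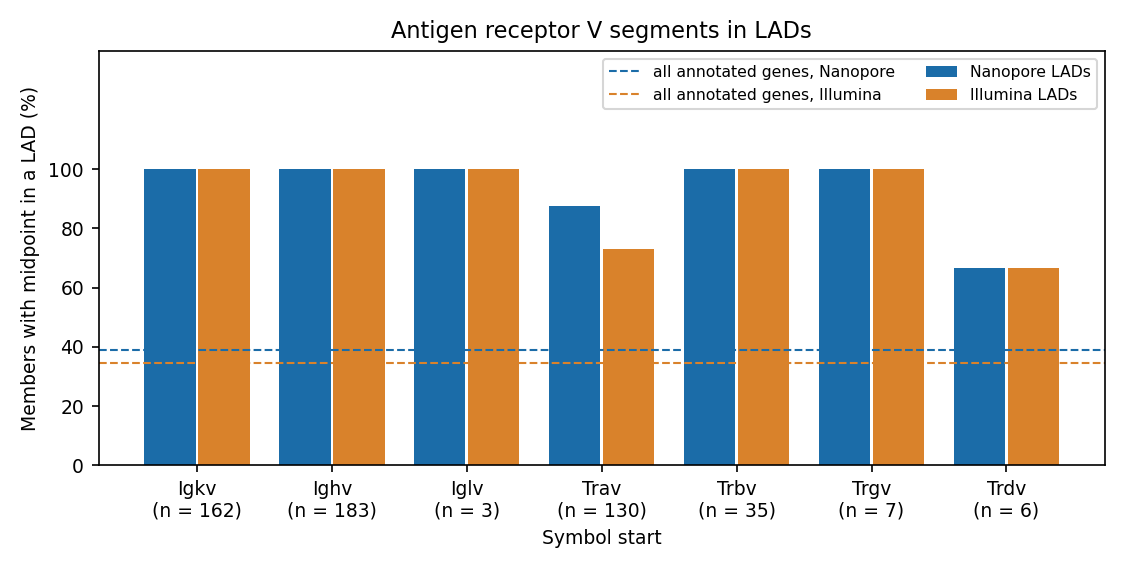
Share of V segment genes with their midpoint in a LAD (%), Igkv first and the other antigen receptor loci after it, with the Nanopore bar left of the Illumina bar. Dashed lines give the share of all annotated genes, 38.9% by Nanopore and 34.7% by Illumina. Only Trav and Trdv, whose spans overlap, are under 100%.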

How the data were processed

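Per the labels' protocols, Dam fusions were induced with 2 µg/mL doxycycline, and Nanopore-DamID used DpnI digestion of 2.5 µg of genomic DNA and ligation of adaptors. Per the submitters' processing notes, mm10 and hg38 were the builds, and bedtools, deepTools, SAMtools and minimap2 the tools; no role or version is stated. How LADs were called, how reads from near-identical V segments were handled and which samples stand behind a list are points not given in the sources used here. The authors deposited the LADs as interval coordinates with no score; 100% of borders on the chromosomes used fell on multiples of 20 kb. The CTCF list of HEK293T cells was not used. Values of some single genes are left out.

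Gene positions are those of the C57BL/6J reference; the copy of the locus in N2A cells was not analysed here. Of 49997 annotation rows, 340 on these chromosomes were left out because they are listed below 3 Mb, where placed sequence starts. Ensembl identifiers matched 160 of the 162 members by symbol. The annotation gives no strand for the members. Any gene was counted as inside a LAD if its midpoint was. The overlap step was tested on simulated data. Members and lists were chosen with earlier results of these data known. Named genes were those next to LAD borders, the first, last, longest and shortest member, the J segments and Igkc, members in neither list or a single list, the 10 nearest protein-coding genes on each side, and counts per family. Igkv3-2 to Igkv3-5, Igkv4-79, Igkv7-33, Igkv1-35, the members at the widest and narrowest gap, LOC108169192, Gm30211 and the CpG counts were chosen after their values were seen. Python 3.11.15, numpy 2.4.6, pandas 2.3.3 and matplotlib 3.10.9 were used.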

Additional observations from a re-analysis of the deposited data

How the results depend on the processing

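The share of Igkv members in LADs stayed at 100% and the count in LADs of a single method at 0, with both lists, under 5 alternatives: any overlap in place of the midpoint, the whole gene, LADs under 100 kb left out, gaps of up to 100 kb merged, and pseudogenes left out. These 5 settings could not have changed the share or the count, since every member lay wholly inside a single LAD of 3.44 Mb in both lists. Coverage of the span stayed at 100% in both lists under the settings for narrow LADs and gaps, which could not lower it either. It also stayed at 100% when the span was extended through Igkc. No Igkv symbol was listed on another chromosome, so that alternative gave no value. In settings chosen after seeing the data, each LAD was trimmed at both ends. With 20 or 40 kb trimmed the share stayed at 100% in both lists. It was 99.4% with 60 kb and 98.1% with 80 kb, 96.9% with 100 kb, 93.8% with 200 kb and 79.6% with 500 kb, the same in both lists. Coverage of the span was then 95.4% with 200 kb and 77.5% with 500 kb in both. These falls follow from the members' distances to the borders, with 5 members under 100 kb and 33 under 500 kb from one. No paired analysis was possible because the lists carry no replicates, and for the same reason no replicate could be left out. Depth is unknown, and with a 20 kb grid, borders are known no more finely than that step.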
